A study of Mus musculus with 25 samples.

Results

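Toll-like receptors and the proteins that carry their signal were examined in HSLAM cells, the LSK+ CD150+ CD48- stem cell population of mouse bone marrow. The set was taken by name as 10 genes: the receptors Tlr1, Tlr2, Tlr4, Tlr6, Tlr7, Tlr9 and Tlr13, the co-receptors Cd14 and Ly96, and the adaptor Myd88. Of these, 6 (Tlr2, Tlr4, Tlr6, Cd14, Ly96 and Myd88) were found by symbol among the 23116 genes of the expression table and all 6 passed the filter on low values. Tlr1, Tlr7, Tlr9 and Tlr13 were not analysed here.

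The RNA-seq data came from 3 Znf143 f/f and 3 Znf143 -/- libraries, the RNA-seq part of a study with ChIP-seq and HiC of the same genotypes that were not analysed here. All 6 libraries came from tamoxifen-treated adult littermates of the C57BL/6 strain whose loxP sites flank exon 1 of Znf143. The Znf143 -/- mice also carried Rosa26ERT2-Cre, a tamoxifen-activated recombinase made in all tissues, so that the deletion was not limited to stem cells. The Znf143 f/f mice lacked the Cre, so that recombinase and deletion cannot be told apart. The labels name the genotype of the 3 Znf143 -/- libraries "CTCF KO", whereas the study's methods describe a deletion of Znf143. Values are FPKM (fragments per kilobase of gene, scaled to the depth of the library), divided here by a size factor per library and called rescaled FPKM.

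Toll-like receptors recognise conserved molecules of microbes, either at the cell surface (Tlr1, Tlr2, Tlr4, Tlr6) or in endosomes (Tlr7, Tlr9, Tlr13). Ligand binding brings their intracellular TIR domains together, and the adaptor MyD88 then recruits IRAK kinases and TRAF6, which lead to NF-kB, MAP kinases and, from endosomes, IRF7. Blood stem and progenitor cells are known to carry some of these receptors and to respond to their ligands directly.

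The deleted gene was examined first. Its row in the table carries the name Zfp143, which mouse annotations use, with a rescaled FPKM of 3.07, 4.43 and 3.66 with Znf143 f/f, against 0.155, 0.298 and 0.270 with Znf143 -/-. All 3 Znf143 -/- libraries lay below all 3 Znf143 f/f libraries, with a log2 fold change of -3.50 (standard error, SE, 0.24, limma, Benjamini-Hochberg adjusted p = 0.001003). The transcript was thus lowered in the libraries labelled as knockouts.

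On genes lay 38643255 to 57895793 fragments per library, so that 3 fragments on a gene of 1 kb were worth a deposited FPKM of 0.0555 to 0.0777. All pairs of libraries of 1 genotype differed by more than counting noise, though not to the same extent. Between Znf143 f/f libraries 1 and 3, the chi-square per degree of freedom over genes was 5.04, and it was 93.2 and 78.6 between library 2 and these. Between Znf143 -/- libraries 2 and 3, it was 6.87, and it was 120 and 91.8 between library 1 and these. The second Znf143 f/f and the first Znf143 -/- library therefore stood apart, and for each member whose call changed when they were left out both values are given below, with those of the other genes at the end. With both left out, 41.2% of all tested genes were called, and with each close pair averaged into 1 sample, 0.244% were. Nothing in the labels says whether the close libraries share RNA, and p-values measure the spread between these 6 libraries, which may be partly technical.

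None of the 6 members passed an adjusted p of 0.05 between genotypes, although Myd88 mRNA was higher and Cd14 mRNA lower in every Znf143 -/- library than in every Znf143 f/f library. Ly96 was higher in 2 of the 3 Znf143 -/- libraries than in any Znf143 f/f library, and the groups overlapped in Tlr2, Tlr4 and Tlr6. Over all 19279 genes tested with limma, 1154 (5.99%) passed an adjusted p of 0.05, 578 (3%) of them higher and 576 (2.99%) lower in Znf143 -/- libraries. An unadjusted p under 0.05 was met by 2 of the 6 members, Myd88 and Cd14, and by 24.2% of all tested genes. limma's voom on recovered fragments called 7.27% of genes and again 0 of the 6 members, 2 of which had an unadjusted p under 0.05, and FPKM as deposited gave 4.32% of genes and 0 members. Groups that did not overlap were found for 2 of the 6 members and for 30.7% of all tested genes, so that such a gap is common in these libraries. The median log2 fold change was 0.22 over the 6 members and 0.006 over all tested genes.

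Levels per gene length differed widely among the members. In Znf143 f/f libraries, Ly96 and Myd88 were the most abundant, with a mean rescaled FPKM of 26.9 ± 2.89 and 25.7 ± 3.65 (SD, n = 3), which do not differ beyond their spread. Tlr2 followed with 3.27 ± 0.411 and Cd14 with 2.43 ± 0.731, whose libraries overlap, and then came Tlr4 with 1.23 ± 0.238 and Tlr6 with 0.645 ± 0.178 (SD, n = 3). Co-receptor and adaptor transcripts thus lay above those of the receptors, except that the co-receptor Cd14 lay beside Tlr2. Of all tested genes, 88.4% had a lower mean over the 6 libraries than Myd88, 88.3% a lower one than Ly96, 55.6% a lower one than Tlr2 and 28.3% a lower one than Tlr6. The length listed for Cd14 was 1572 bases, against 1732 in the exons of the annotation used here, whereas both lengths were equal for the other 5 members.

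**Figure D1:**
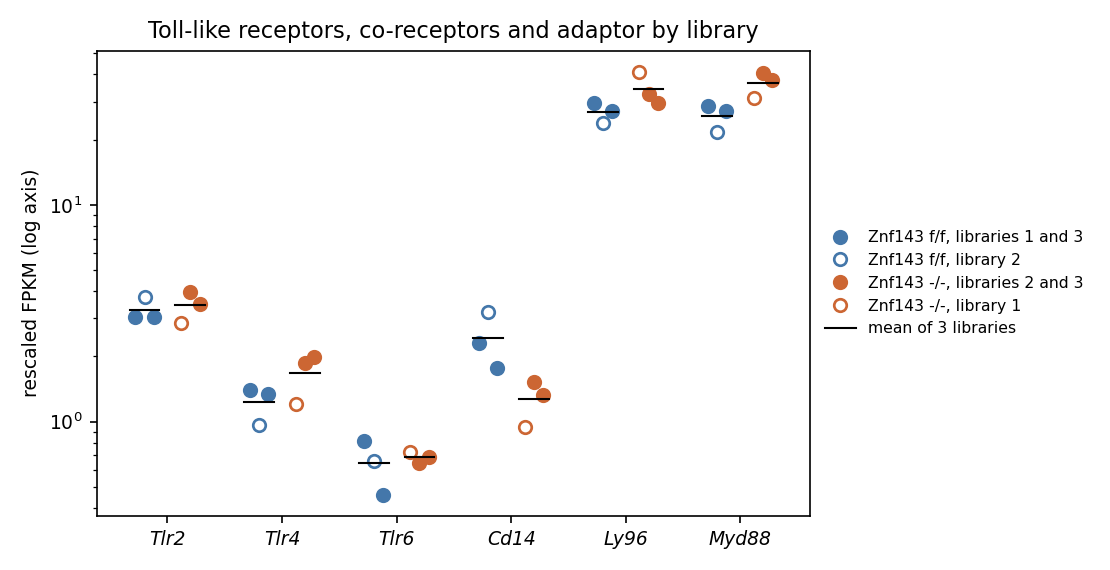
Rescaled FPKM (log axis) of the 6 members in each of the 6 libraries, with Znf143 f/f in blue, Znf143 -/- in orange, the library that stands apart in each genotype as an open circle and the mean of 3 libraries as a bar. Myd88 lies at 21.6 to 28.5 in Znf143 f/f and at 31.0 to 40.8 in Znf143 -/- libraries, and Cd14 at 1.77 to 3.22 and at 0.946 to 1.53.

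Tlr2 (ENSMUSG00000027995.10, chromosome 3 of GRCm38, 83836272 to 83841767) encodes the receptor for bacterial lipoproteins, which acts in a pair with Tlr1 or Tlr6. With Znf143 f/f its rescaled FPKM was 3.03, 3.74 and 3.04, and with Znf143 -/- it was 2.86, 3.97 and 3.49. The Znf143 -/- libraries held both the lowest and the highest value, and the groups overlapped. This gave a log2 difference of 0.07 (SE 0.16, 95% confidence interval (CI) -0.32 to 0.45, limma adjusted p = 0.841), from 351 to 615 fragments per library. It was -0.04 without the second Znf143 -/- library.

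Tlr6 (ENSMUSG00000051498.6, chromosome 5, 64952031 to 64960097), the partner of Tlr2 for diacylated lipoproteins, had the lowest level of the 6, with 76 to 150 fragments per library. Its rescaled FPKM was 0.816, 0.659 and 0.462 in Znf143 f/f, and 0.726, 0.644 and 0.689 in Znf143 -/- libraries. All Znf143 -/- values lay inside the range of the Znf143 f/f values. This gave a log2 difference of 0.10 (SE 0.23, 95% CI -0.45 to 0.66, limma adjusted p = 0.826), and -0.09 without the third Znf143 f/f library. Tlr1, a close paralog, lies beside Tlr6 on chromosome 5 from 64924679 to 64933563. Reads from sequence shared by both paralogs could make the values of Tlr6 less certain, which was not tested.

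Tlr4 (ENSMUSG00000039005.13, chromosome 4, 66827584 to 66930284) encodes the receptor for lipopolysaccharide, the main glycolipid of Gram-negative bacteria. With Znf143 f/f its rescaled FPKM was 1.39, 0.961 and 1.35, and with Znf143 -/- it was 1.21, 1.86 and 1.99. The second and the third Znf143 -/- libraries lay above all Znf143 f/f libraries, and the first lay among them. This gave a log2 difference of 0.41 (SE 0.24, 95% CI -0.17 to 0.98, limma adjusted p = 0.355), from 263 to 645 fragments. With both libraries that stand apart left out, it was 0.46 with a limma adjusted p of 0.0201, a setting in which 41.2% of all genes were called. With the close libraries averaged, the adjusted p from limma was 0.812.

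Ly96 (ENSMUSG00000025779.10, chromosome 1, 16688051 to 16709611) encodes MD-2, the protein bound to Tlr4 that holds the lipid part of lipopolysaccharide. In Znf143 f/f libraries its rescaled FPKM was 29.7, 23.9 and 27.2, and in Znf143 -/- libraries 41.1, 32.5 and 29.6. The third Znf143 -/- library lay just under the first Znf143 f/f library, and with FPKM as deposited the groups did not overlap. This gave a log2 difference of 0.34 (SE 0.15, 95% CI -0.01 to 0.69, limma adjusted p = 0.214), from 1166 to 1862 fragments. It was 0.21 without the first Znf143 -/- library and 0.12 with both libraries that stand apart left out.

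Cd14 (ENSMUSG00000051439.7, chromosome 18, 36725067 to 36726798) encodes the membrane-anchored co-receptor that passes lipopolysaccharide to Tlr4 and MD-2. With Znf143 f/f its rescaled FPKM was 2.30, 3.22 and 1.77, and with Znf143 -/- it was 0.946, 1.53 and 1.33. Every Znf143 -/- library lay below every Znf143 f/f library, as did 15.3% of all tested genes. The extremes were the libraries that stand apart, the second Znf143 f/f library with the highest and the first Znf143 -/- library with the lowest value. The mean went from 2.43 ± 0.731 to 1.27 ± 0.295 (SD, n = 3) (log2 fold change -0.87, SE 0.26, 95% CI -1.502 to -0.24, limma adjusted p = 0.108). The two-sided exact permutation test gave p = 0.1, the smallest that 3 libraries against 3 allow. Without the libraries that stand apart, the log2 fold change was -0.47 (limma adjusted p = 0.0709). Only 66 to 249 fragments per library lay on Cd14.

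Myd88 (ENSMUSG00000032508.8, chromosome 9, 119335934 to 119341411) encodes the adaptor of all the receptors named above and of the interleukin-1 receptor family. With Znf143 f/f its rescaled FPKM was 28.5, 21.6 and 27.01, and with Znf143 -/- it was 31.0, 40.8 and 37.7. Every Znf143 -/- library lay above every Znf143 f/f library, as did 15.4% of all tested genes. The mean went from 25.7 ± 3.65 to 36.5 ± 5.01 (SD, n = 3) (log2 fold change 0.51, SE 0.15, 95% CI 0.15 to 0.86, limma adjusted p = 0.0985). The two-sided exact permutation test gave p = 0.1, the smallest possible here. Without the first Znf143 -/- library the log2 fold change was 0.62 with a limma adjusted p of 0.0495, a setting in which 10.9% of all genes were called, and with both libraries that stand apart left out the adjusted p from limma was 0.00506. With the close libraries averaged it was 0.507. Over its 17 alternatives the log2 fold change stayed between 0.38 and 0.62. Exons of Acaa1a, on the other strand, cover 11.3% of the exon bases of Myd88, and the library kit does not mark strand. Acaa1a had a log2 fold change of -0.08 (SE 0.093, limma adjusted p = 0.640).

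The promoters of the members were read from RefSeq windows of GRCm38.p6, which run from 250 bases before to 50 bases after a start. Tlr4, Tlr7 and Ly96 are named only, and Cd14 was not looked up. Windows were searched on both strands for the core of the interferon response element, GAAANNGAA (N is any base), which 8.56% of all windows held, for the motif of PU.1, a factor of myeloid genes (GAGGAAGT, 3.20%), and for the 2 modules of the motif that ZNF143 itself binds (ACTACAA, 3.24%, and CCCAGNATG, 2.04%). Myd88 held GAAANNGAA at 40 bases before its start, on the strand of the gene, and none of the other 3 motifs. Tlr6 held it at 2 overlapping places in 1 of its 2 windows, and Tlr2 held none of the 4 motifs. Of the receptors without values here, Tlr1 held ACTACAA and GAGGAAGT in 1 of 2 windows, Tlr9 held GAGGAAGT and Tlr13 none. A match is not a site that was measured to be bound. The 130 bases before the start of Myd88 are shown because it was the member with a match near its start and groups that did not overlap. They are read 5′ to 3′ on the strand of the gene, with the match in capitals, and 23 of them lie in an exon that GENCODE gives Myd88 upstream of the RefSeq start:
Myd88 (chr9:119340019-119340148, minus strand): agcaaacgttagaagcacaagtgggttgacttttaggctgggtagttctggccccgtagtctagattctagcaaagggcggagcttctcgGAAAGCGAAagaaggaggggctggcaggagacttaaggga

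**Figure D2:**
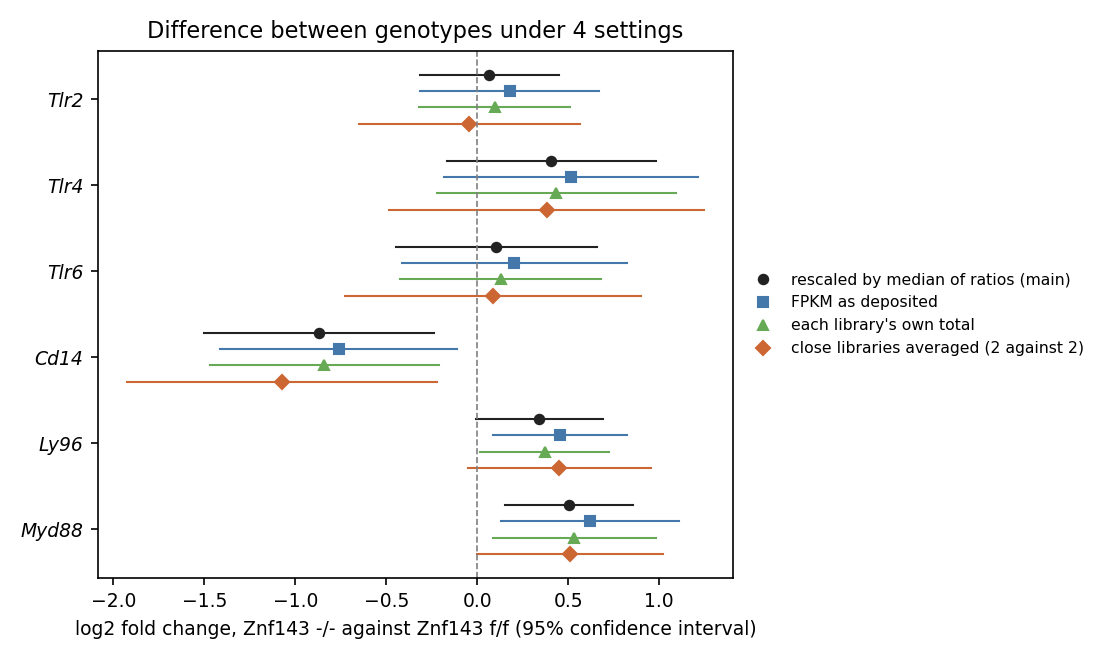
Log2 fold change of each member, Znf143 -/- against Znf143 f/f, with 95% confidence intervals from limma under 4 settings (rescaled, as deposited, divided by the fragments on genes of each library, and with close libraries averaged). Cd14 is below 0 in all 4, Myd88, Ly96, Tlr4 and Tlr6 above 0 in all 4, and Tlr2 lies at 0.07 rescaled and at -0.04 with close libraries averaged.

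The relation of co-receptor to receptor transcripts was compared within libraries, where the scaling of a library cancels. These ratios were chosen after the values had been seen. The ratio of Cd14 to Tlr4 was 1.65, 3.35 and 1.31 with Znf143 f/f, against 0.783, 0.821 and 0.669 with Znf143 -/-. Cd14 transcripts thus outnumbered those of Tlr4 per gene length in every Znf143 f/f library and in no Znf143 -/- library. The ratio of Cd14 to Ly96 was 0.0774, 0.134 and 0.0651 with Znf143 f/f, against 0.0230, 0.0470 and 0.0449 with Znf143 -/-, again without overlap. The ratio of Tlr4 to Ly96 was 0.0456 ± 0.00484 and 0.0513 ± 0.0196 (SD, n = 3) and overlapped. Cd14 alone did not overlap between genotypes, as 30.7% of all tested genes did not, so that the ratios with Cd14 are not a separate result. How often other ratios separate the genotypes was not counted, and no test is given for these ratios.

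The rest of the pathway was read from 11 lists that together hold 95 genes, of which 91 were found by symbol and 83 passed the filter. Of these 83, 10 (12.0%) passed an adjusted p of 0.05 with limma, 8 higher and 2 lower in Znf143 -/- libraries, where 5.99% of all tested genes were called. The median log2 fold change of the 83 genes was 0.11. The calls lay in 5 of the 11 lists. With 1 library left out, the count lay between 4 and 19, the latter without the first Znf143 -/- library. With close libraries averaged, 3 genes were called, Ctss, Lgmn and Irf7, and these 3 passed in all 17 alternatives.

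**Figure D3:**
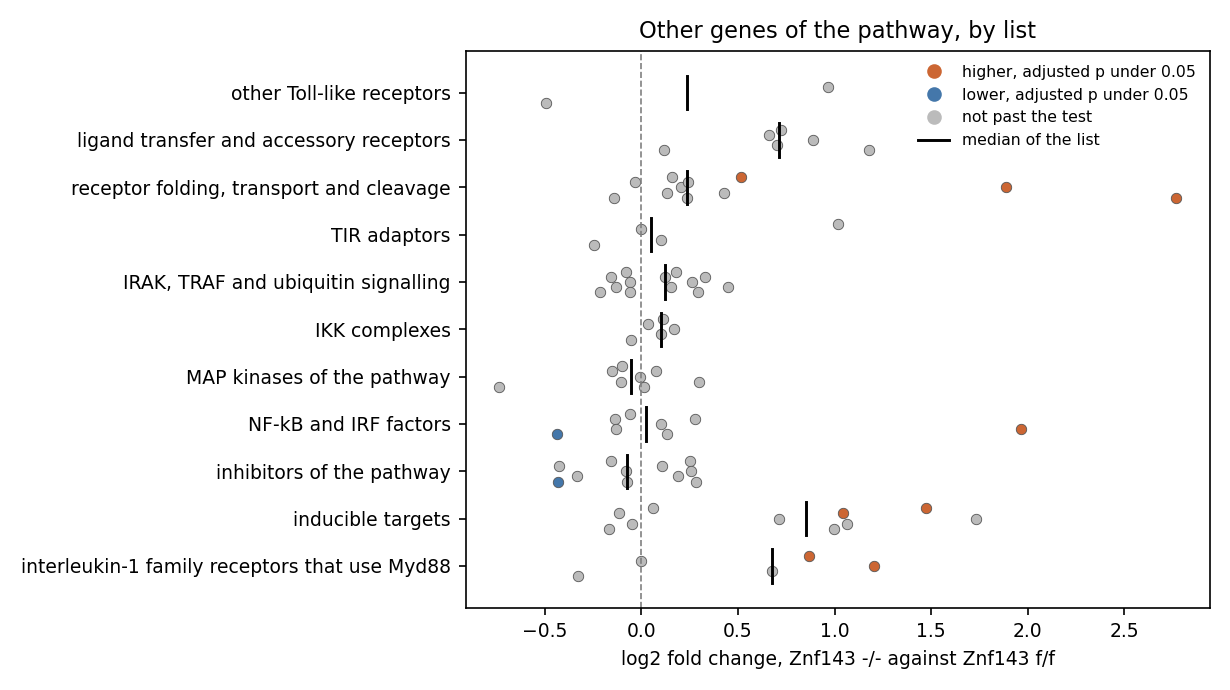
Log2 fold change (Znf143 -/- against Znf143 f/f) of each tested gene of the 11 pathway lists, with genes past an adjusted p of 0.05 (limma) in orange where higher and in blue where lower, the others in grey, and the median of each list as a bar. The 8 orange points reach from 0.51 (Cnpy4) to 2.77 (Lgmn), and the 2 blue points are Irf3 and Nfkbib.

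Among the proteins that fold, transport and cleave the receptors, 3 of 11 tested genes rose and none fell, with a median log2 fold change of 0.24. Lgmn encodes legumain and Ctss cathepsin S, endolysosomal proteases that cut nucleic acid-sensing receptors into their active form. Lgmn had a rescaled FPKM of 0.694, 0.725 and 0.643 with Znf143 f/f, against 6.00, 4.82 and 5.01 with Znf143 -/- (log2 fold change 2.77, SE 0.14, limma adjusted p = 0.000415). Ctss had 12.3, 13.2 and 13.7 against 58.8, 43.2 and 45.5 (log2 fold change 1.89, SE 0.13, limma adjusted p = 0.00104). In both genes the Znf143 f/f libraries lay close together and the first Znf143 -/- library was the highest. Cnpy4, a chaperone for surface display of Tlr4, had 23.4, 19.95 and 21.5 against 29.9, 31.6 and 31.1 (log2 fold change 0.51, SE 0.087, limma adjusted p = 0.0228). Cnpy4 passed in 8 of 17 alternatives. The most abundant genes of this list, Hsp90b1 (gp96, the folding chaperone of most Toll-like receptors) and Lrrc59 (a transport factor of the endosomal ones), had log2 fold changes of -0.14 and 0.43 that did not pass the test. Lrrc59 passed without the first Znf143 -/- library (0.56, limma adjusted p = 0.0189).

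Of the transcription factors, 1 of 8 tested genes rose and 1 fell, with a median of 0.02. Irf7, which the MyD88 pathway activates from endosomes, had a rescaled FPKM of 7.07, 5.26 and 6.45 with Znf143 f/f, against 25.9, 24.5 and 23.2 with Znf143 -/- (log2 fold change 1.96, SE 0.13, limma adjusted p = 0.000824). Irf3, which the adaptor TRIF activates downstream of Tlr3 and Tlr4, had 22.2, 24.5 and 21.1 against 17.0, 17.0 and 16.0 (log2 fold change -0.44, SE 0.087, limma adjusted p = 0.0380). The 2 factors thus moved in opposite directions. Rela, the NF-kB subunit p65 and the most abundant factor of the list, had a log2 fold change of 0.13 (limma adjusted p = 0.507).

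Of the inhibitors, 1 of 11 tested genes fell and none rose. Nfkbib, which encodes the NF-kB inhibitor IkB-beta, had a rescaled FPKM of 25.6, 27.5 and 23.7 with Znf143 f/f, against 19.3, 19.2 and 18.3 with Znf143 -/- (log2 fold change -0.43, SE 0.086, limma adjusted p = 0.0373). Both Irf3 and Nfkbib passed in 9 of 17 alternatives and kept their direction in all of them. With FPKM as deposited, their log2 fold changes were -0.32 and -0.32, with limma adjusted p-values of 0.274 and 0.277. That setting gives Znf143 -/- library 3 the divisor of library 2. With the own total of each library, both genes passed (limma adjusted p = 0.0489 each). Both also passed with voom (adjusted p = 0.0348 and 0.0372). Their calls were also lost without the variance trend, with the replicate block and with close libraries averaged. The same held when any 1 library other than those that stand apart was left out. Nfkbia, which encodes IkB-alpha and was the most abundant of the list, had a log2 fold change of 0.10 and Otulin, a deubiquitinase, of 0.26, neither past the test. Otulin passed with both libraries that stand apart left out (0.41, limma adjusted p = 0.00756). Exons of Ccer2 cover 14.5% of the exon bases of Nfkbib on the other strand, and those of Bcl2l12 cover 2.56% of Irf3. Ccer2 was not analysed here.

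The promoters of these 2 lowered genes are shown because both held a module of the ZNF143 motif. Nfkbib held ACTACAA at 117 and at 48 bases before its start, and Irf3 held CCCAGNATG at 14 bases before its start. No window of Tlr2, Tlr6 or Myd88, or of the genes that rose, held either module (Ccl5 had no window and is named only). Among genes tested here with a window, 6.83% held at least 1 module, against 27.9% of the 351 called lower and 7.72% of the 337 called higher, given as a description. The 120 bases before the start of Nfkbib and the 30 bases before that of Irf3, read as for Myd88, have the matches in capitals:
Nfkbib (chr7:28766645-28766764, minus strand): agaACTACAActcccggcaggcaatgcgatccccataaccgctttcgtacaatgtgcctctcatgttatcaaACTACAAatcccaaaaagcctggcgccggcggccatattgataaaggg
Irf3 (chr7:44997618-44997647, plus strand): atttgcatatggcgttCCCAGCATGcctgt

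Both stretches are shared with a gene on the other strand, since 30 bases of the first lie in an exon of Sirt2 and 26 bases of the second in an exon of Bcl2l12. Sirt2 had a log2 fold change of 0.04 (limma adjusted p = 0.868) and Bcl2l12 one of 0.68 (limma adjusted p = 0.0505). In Bcl2l12 all 3 Znf143 -/- libraries lay above all Znf143 f/f libraries, as in 15.4% of all tested genes.

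Of the genes that rose, Ctss held GAAANNGAA at 21 bases before its start, on the strand of the gene, and GAGGAAGT across the start, and Il18rap held GAGGAAGT. Cnpy4, Lgmn, Irf7, Il1b and Il1r1 held none of the 4 motifs. Among genes tested here with a window, 8.53% held GAAANNGAA, against 11.9% of the 337 called higher, given as a description. For GAGGAAGT these shares were 3.86% and 9.50%. The 130 bases before the start of Ctss are shown beside those of Myd88 for the same core, in capitals:
Ctss (chr3:95526656-95526785, plus strand): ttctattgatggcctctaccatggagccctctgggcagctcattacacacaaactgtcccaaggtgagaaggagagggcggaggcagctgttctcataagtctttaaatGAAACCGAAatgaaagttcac

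**Figure D4:**
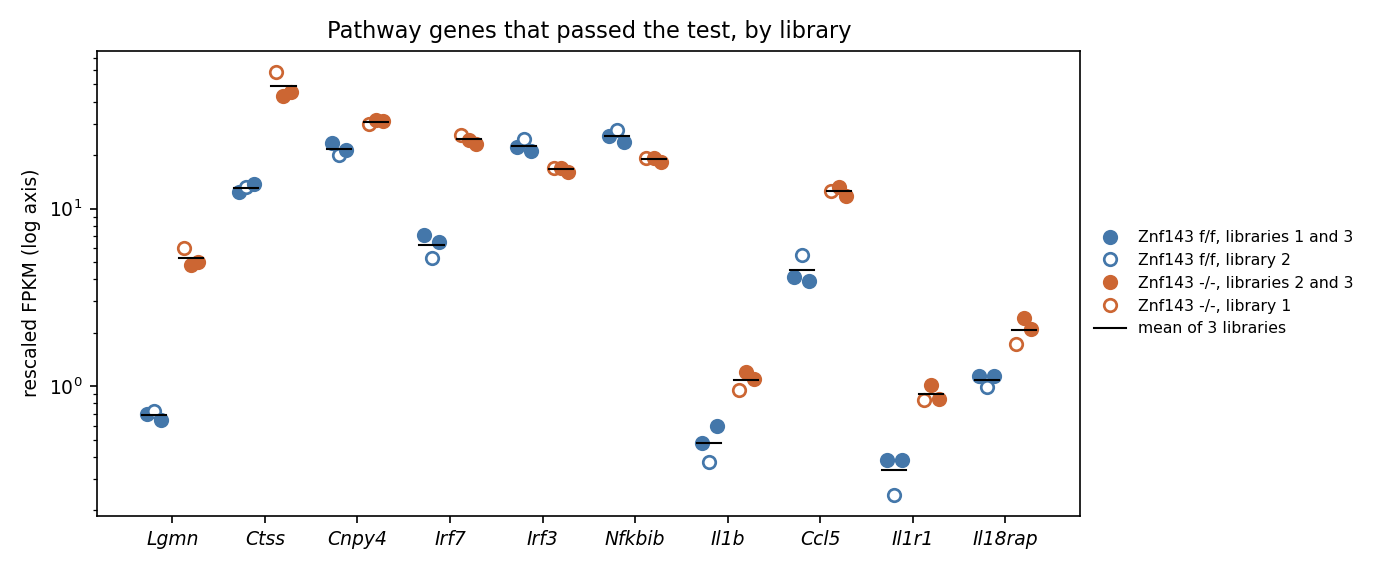
Rescaled FPKM (log axis) of the 10 pathway genes past an adjusted p of 0.05 (limma) in each library, drawn as for the members. The groups do not overlap in any of the 10, which is nearly fixed by their choice through the test on the same values, nor in 30.7% of all tested genes. Lgmn has the widest gap, from at most 0.725 in Znf143 f/f to at least 4.82 in Znf143 -/- libraries.

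Among genes that the pathway induces, 2 of 10 tested genes rose and none fell, with a median of 0.85. Ccl5, a chemokine for T cells and monocytes, had a rescaled FPKM of 4.11, 5.498 and 3.89 with Znf143 f/f, against 12.5, 13.3 and 11.8 with Znf143 -/- (log2 fold change 1.47, SE 0.15, limma adjusted p = 0.00445). It passed in 16 of 17 alternatives. Il1b, the inflammatory cytokine interleukin-1 beta, was low, with 0.477, 0.373 and 0.593 against 0.957, 1.21 and 1.10 from 35 to 122 fragments (log2 fold change 1.04, SE 0.21, limma adjusted p = 0.0408). Ccl4, another chemokine and the most abundant of the list, had 97.6, 69.0 and 93.8 against 108, 62.5 and 73.5, so that its groups overlapped. Cxcl1, Nos2 and Saa3 were under the filter.

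Of the interleukin-1 family receptors that also signal through MyD88, 2 of 5 tested genes rose and none fell. Il1r1, the signalling receptor of interleukin-1, had a rescaled FPKM of 0.384, 0.246 and 0.384 with Znf143 f/f, against 0.840, 1.01 and 0.845 with Znf143 -/- (log2 fold change 1.202, SE 0.22, limma adjusted p = 0.0309). Il18rap, the accessory chain of the interleukin-18 receptor, had 1.14, 0.986 and 1.14 against 1.73, 2.41 and 2.10 (log2 fold change 0.87, SE 0.17, limma adjusted p = 0.0357). Il1rap, the shared accessory chain, had a log2 fold change of -0.33 that did not pass the test (limma adjusted p = 0.579). Il1b, Il1r1 and Il18rap passed in 7 of 16, 10 of 16 and 9 of 17 alternatives.

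The signalling core between adaptor and transcription factors held no call. None of 13 genes of the IRAK, TRAF and ubiquitin list passed, with a median of 0.12, and its most abundant genes Irak1 and Ube2n (a ubiquitin-conjugating enzyme used by TRAF6) had log2 fold changes of 0.18 and 0.12. None of 5 IKK genes passed, with 0.03 for Chuk (IKK-alpha) and -0.05 for Tbk1, and none of 8 MAP kinase genes, with -0.10 for Map2k3 and 0.30 for Mapkapk2. None of 4 tested TIR adaptors passed, with -0.25 for Ticam1 (TRIF) and -0.004 for Pik3ap1 (BCAP). Tirap, the adaptor that bridges MyD88 to Tlr2 and Tlr4, was singled out after its values had been seen. It had a rescaled FPKM of 0.817, 1.52 and 1.01 with Znf143 f/f, against 2.52, 2.22 and 2.14 with Znf143 -/- (log2 fold change 1.02, SE 0.23, limma adjusted p = 0.0529). Its groups did not overlap, as in 30.7% of all tested genes. Tirap passed in 7 of 17 alternatives, voom and FPKM as deposited among them. At an unadjusted p under 0.05 from limma stood 0 of the 13, 0 of the 5, 1 of the 8 and 1 of the 4 genes, and voom on recovered fragments called 0, 0, 1 and 1 of them. Over all 83 pathway genes, voom called 15 in place of 10.

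The remaining receptors and accessory receptors held no call either, by limma or by voom, and 0 of 2 and 1 of 6 tested genes had an unadjusted p under 0.05 from limma. Tlr3, the receptor for double-stranded RNA, had a rescaled FPKM of 0.255, 0.156 and 0.326 with Znf143 f/f, against 0.0649, 0.223 and 0.161 with Znf143 -/-. Tlr12 lay between 0.0654 and 0.589, with overlap, and Tlr5 was under the filter. All 6 tested genes of the ligand transfer list had a log2 fold change above 0, with a median of 0.71. Itgb2, the beta chain of leukocyte integrins, had 8.89, 2.53 and 8.32 against 11.5, 13.9 and 14.1, a log2 fold change of 1.18 (limma adjusted p = 0.18) that became 0.60 (limma adjusted p = 0.0357) without the second Znf143 f/f library. Lbp, which carries lipopolysaccharide to Cd14, had 6.39, 1.82 and 5.86 against 6.92, 6.55 and 6.73. In both genes 1 Znf143 f/f library, the second, lay far below the other two.

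Markers of other blood cells moved with genotype, and their part in the results above was not tested. Of all tested genes, 3% were called higher and 2.99% lower, to be set beside the counts of each marker list. In bulk samples, fewer cells of a type and less RNA per cell cannot be told apart. The sort markers were present: Slamf1 (CD150) had a rescaled FPKM of 5.14 to 7.59 in the Znf143 f/f and of 7.87 to 9.03 in the Znf143 -/- libraries, and Kit 19.4 to 22.1 and 13.5 to 16.8. Cd48, against which the cells were sorted, was also found, with 9.56 to 11.1 and 19.6 to 20.4. Of the 10 stem cell markers, 1 rose and 1 fell, and 2 of 10 had a log2 fold change above 0, with a median of -0.41. Their summed level was 483 to 542 and 760 to 808, in which Ly6a (Sca-1), the gene that rose, stood at 239 to 288 and 550 to 602. All 3 tested genes of the multipotent and lymphoid progenitor list rose, and its sum was 15.0 to 16.1 and 42.6 to 43.8, led by Flt3 and Cd48.

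Mature myeloid cells carry most Toll-like receptors and Cd14, and lists of myeloid markers, not all of them of mature cells, are given here for that reason. Of 8 tested monocyte and macrophage markers 2 rose and none fell, and 7 had a log2 fold change above 0, with a median of 0.82. The summed level of the list was 543 to 579 in the Znf143 f/f and 438 to 459 in the Znf143 -/- libraries. Most of that sum was Lyz2, with 530 to 567 and 415 to 429, and the next was Ms4a6c, with 10.6 to 11.9 and 18.5 to 27.5. Csf1r, the receptor that defines these cells, was near 0, with at most 0.014 in the Znf143 f/f and 0.185 to 0.262 in the Znf143 -/- libraries, and at 0 in the second Znf143 f/f library. Csf1r passed the filter on low values only through the Znf143 -/- libraries, so that its direction in the counts above was fixed by the filter. Of 9 tested neutrophil markers 5 rose and none fell, where 3% of all tested genes rose and 2.99% fell. The sum of the list was 268, 201 and 255 with Znf143 f/f, against 430, 271 and 283 with Znf143 -/-. The lowest and the highest of these sums came from the 2 libraries that stand apart. The list was led by Prtn3 and S100a8, with Ly6g at or near 0. Its rise is therefore not read as one of mature neutrophils, and how mature the cells behind it were was not tested.

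Vpreb1, a part of the pre-B cell receptor, stood at 2.95 to 3.20 and 1.58 to 2.14 (log2 fold change -0.64, limma adjusted p = 0.0592). Its groups did not overlap, as in 30.7% of all tested genes. The T and natural killer cell markers summed to 122 to 133 and 211 to 264, nearly all of it Nkg7, and 1 of 4 tested genes rose. The dendritic cell markers summed to 0.485 to 1.49 and 1.59 to 1.93, and 1 of 3 tested genes, Xcr1, rose, where 3% of all tested genes did. Levels of this list are low, and whether Xcr1 passed the filter only through the Znf143 -/- libraries, as Csf1r did, is not given here.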

How the data were processed

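HSLAM cells were sorted from bone marrow as LSK+ CD150+ CD48- cells after lineage depletion, and RNA-seq libraries were prepared with SMART-Seq v4 and Nextera XT, which does not mark strand. Genotypes were assigned from the labels of the samples and their replicate numbers from the titles. The methods describe 3 pairs of littermates without naming which libraries form a pair, and give 1 sequencing pool for all 6 libraries.

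Reads were trimmed (TrimGalore), aligned to GRCm38 (STAR), counted as fragments per gene (FeatureCounts) and compared between genotypes (DESeq2) by the authors. The authors deposited FPKM per gene and library together with the gene length. Their other columns (mean normalized count, fold change and its error, test statistic, p-value and adjusted p-value) hold their own comparison and were not used. No column of another sample was present. Of 23116 symbols, 21 had been turned into dates.

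FPKM times gene length gave whole fragments (within 0.05) for 99.986% of the 138696 values. In 5 libraries the number of fragments on genes was 0.998 to 1.001 times the FPKM divisor. The third Znf143 -/- library carried the divisor of the second, 48378188, against 57895793 fragments of its own, a ratio of 1.197. FPKM were therefore divided by median-of-ratios size factors (0.911 to 1.21) over 19046 genes above 0 in all libraries. As deposited, the median log2 fold change of all genes was 0.11, and 63.5% of the 833 calls were higher in Znf143 -/- libraries, against 50.1% after rescaling.

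Genes with a mean rescaled FPKM of at least 0.1 were put on a log2 scale as log2(rescaled FPKM + 0.1) and tested in limma 3.58.1 (R 4.3.3, lmFit, eBayes with a variance trend, genotype alone), two-sided, with Benjamini-Hochberg adjustment over all 19279 genes. Fold changes are on this scale, which understates those of low genes. The same fit was tested on simulated data. Positions and exons are from GENCODE M21 on GRCm38, promoter windows from RefSeq. Tables and plots used pandas 2.3.3, numpy 2.4.6 and matplotlib 3.10.9 in Python 3.11.15.

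The members, lists and tests were chosen with earlier results of these data known. Named are all members, of each pathway list the genes past an adjusted p of 0.05 (at most 6, by smallest p) and the 2 with the highest mean, and of each marker list the 2 with the highest mean and defining genes at 0. Of these, 1 marker list is not reported here. The sort markers, Csf1r, Xcr1, Vpreb1, Tirap and genes that share exons with a named gene were added after values were seen. The alternatives were FPKM as deposited, FPKM with the own total of each library, pseudocounts of 0.01 and 1, no filter, a mean of at least 1, voom on recovered fragments, no variance trend, a replicate block and each library left out. After the data had been seen, 2 more were added: both libraries that stand apart left out, and close libraries averaged.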

Additional observations from a re-analysis of the deposited data

How the results depend on the processing

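Per gene of the 36 named and alternative, 527 of 607 fold changes kept their direction and their side of the threshold, 49 kept the direction and lost the call, 12 gained a call and 19 changed sign, none of the latter past the threshold in the main setting. For the 6 members, 95 of 101 kept both, 3 gained a call (Myd88 under 2 settings and Tlr4 under 1, given above) and 3 changed sign: Tlr2 to -0.040 without the second Znf143 -/- library and to -0.043 with close libraries averaged, and Tlr6 to -0.086 without the third Znf143 f/f library. With both libraries that stand apart left out, the 9 named genes that gained a call were Tlr4, Myd88 and Otulin, given above, Itgb2 (0.70), Lrrc59 (0.52), Tlr12 (1.11), Ube2n (0.17), Mapkapk2 (0.34) and Ccl4 (-0.50), with limma adjusted p-values from 0.00210 to 0.0290. With 1 library left out, Il1rap ranged from -0.52 to -0.015, Rela from 0.045 to 0.19, Ly96 from 0.21 to 0.44, Tlr2 from -0.040 to 0.19 and Tlr6 from -0.086 to 0.27, and the same ranges were -0.22 to 0.21 for Pik3ap1, -0.13 to 0.095 for Tbk1, -0.15 to 0.32 for Chuk and -0.34 to 0.055 for Ccl4, which also changed sign. As deposited, Pik3ap1 was at 0.11, Tbk1 at 0.061 and Map2k3 at 0.0092, and Pik3ap1 was at 0.025 with own totals and at 0.032 with voom. With both libraries that stand apart left out Tbk1 was at 0.026, and with close libraries averaged Chuk was at -0.062 and Ccl4 at 0.077.

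Leaving out 1 library moved the genes called from 1154 to between 223 and 2241, the members called from 0 to between 0 and 1, and the pathway genes called from 10 to between 4 and 19. The highest gene counts were without the second Znf143 f/f (2241) and without the first Znf143 -/- library (2108). With both of these left out, 7946 genes, 2 members and 43 pathway genes were called, and with close libraries averaged 47, 0 and 3. Under the other alternatives except the block, 833 to 1401 genes and 7 to 15 pathway genes were called. With the replicate number as a block, 191 genes, 0 members and 4 pathway genes were called. The correlations of deviations between libraries of the same number were -0.10, -0.09 and 0.04. The libraries that stand apart, the second Znf143 f/f and the first Znf143 -/-, carry different numbers. These correlations therefore cannot show whether the numbers pair the samples, and the block stayed an alternative. As deposited, 5 of the 36 member values per library moved by more than 1 SD, 4 of them in the third Znf143 -/- library. The cause of these changes was not tested.

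Among the members, Tlr6 (76 to 150 fragments per library) and Cd14 (66 to 249) rested on the fewest fragments.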
